A study of Homo sapiens with 6 samples.

Results

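S100 proteins are small calcium-binding proteins, most of which act as dimers. This report covers 10 S100 genes, S100A2, S100A4, S100A6, S100A7, S100A8, S100A9, S100A10, S100A11, S100A14 and S100A16, in SCC-9 cells with and without knockdown of MKI67, the gene of the proliferation marker Ki67. They were taken by gene symbol from the 25349 genes counted, with no cut on their values, and all 10 were found and tested. The list itself was chosen with earlier results of these data known. SCC-9 cells are an established human line, derived from a squamous carcinoma of the tongue. Its medium held 10% FBS and hydrocortisone at 400 ng/mL in both groups. In the siE7 group an siRNA against exon 7 of MKI67 was used, and in the siNC group a nonspecific siRNA. Cells received 10 nM of siRNA on day 0 and once more on day 2, and their RNA was collected on day 4. Each group had 3 RNA-seq libraries of poly(A) RNA. The labels do not say whether the 3 libraries came from separate cultures, so p-values measure the spread between these libraries, which may be technical.

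Most S100 proteins change shape when calcium binds to their EF-hand motifs and then attach to target proteins, such as annexins and myosin. Some are also released from the cell, where S100A8 and S100A9, joined as calprotectin, withhold metal ions from microbes and act on receptors such as TLR4 and AGER (RAGE). Most genes of the family lie together on chromosome 1, in a region that also holds genes of the cornified envelope of squamous epithelium. Keratinocytes express many of them, and S100A7, S100A8 and S100A9 are known to be high in inflamed skin.

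The libraries held 25608192 to 29550264 counts on genes. MKI67 was at 1072, 1029 and 1077 CPM (counts relative to library size, scaled by TMM factors) with siNC and at 112, 124 and 108 with siE7, a log2 fold change of -3.21. All 11 epithelial markers listed were tested, and KRT5 and KRT14 were abundant in every library. Of these markers 5 were lower with siE7 (KRT18 at a log2 fold change of -1.27, CDH1 at -1.03, EPCAM at -0.77, KRT5 at -0.60 and TP63 at -0.33), KRT17 was higher at 0.70 and 5 were not called. Over all tested genes 16.0% were called lower and 18.0% higher. The summed level of the markers was 17900 to 18700 CPM with siNC and 17600 to 23200 with siE7. KRT14 alone had a mean of 9487 CPM with siNC and 11770 with siE7, and was not called (log2 fold change 0.31, edgeR adjusted p = 0.083). Its siE7 libraries were at 14200, 10680 and 10440 CPM, with replicate 1 the highest. The part of the markers in the results below was not tested. Myeloid cells also express S100A8, S100A9 and S100A12. Of 10 myeloid markers 4 were in the table, with PTPRC, LYZ and TYROBP among those not in it, and the list summed to 2.71 to 4.48 CPM with siNC and to 1.59 to 3.34 with siE7. CD14, the only 1 tested, was at 2.19, 3.52 and 3.14 CPM with siNC and at 3.07, 1.34 and 1.73 with siE7. It was not called (log2 fold change -0.52, edgeR adjusted p = 0.23). Without siE7 replicate 1 CD14 was called lower (log2 fold change -0.996, edgeR adjusted p = 0.0022). By the root mean square difference of log2 CPM, siNC libraries were 0.390 to 0.404 apart, and siE7 replicates 2 and 3 were 0.341 apart. Replicate 1 of siE7 stood apart, at 0.585 and 0.587 from the other siE7 libraries. Where a member or a gene named as not called changes its call without this library, both values are given.

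Promoter sequences of RefSeq (GRCh38.p14) are shown for the members that passed a log2 fold change of 1, S100A2, S100A7 and S100A8, with S100A9 as the partner of S100A8 and S100A7A as the near-identical copy of S100A7. Each runs from 250 bases before to 50 bases after a RefSeq start site, 5′ to 3′ on the strand of the gene. Capitals in the first 4 mark a match to the AP-1 motif TGANTCA or to the TATA box TATAAA. Capitals in S100A7A mark the bases that differ from S100A7.
S100A2 (chr1:153565795-153566094, minus strand): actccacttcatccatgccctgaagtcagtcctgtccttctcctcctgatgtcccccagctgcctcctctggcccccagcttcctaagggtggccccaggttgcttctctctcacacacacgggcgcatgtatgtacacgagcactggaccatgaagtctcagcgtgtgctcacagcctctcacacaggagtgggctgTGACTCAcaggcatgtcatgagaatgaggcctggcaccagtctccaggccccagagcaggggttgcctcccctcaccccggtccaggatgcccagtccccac
S100A7 (chr1:153460602-153460901, minus strand): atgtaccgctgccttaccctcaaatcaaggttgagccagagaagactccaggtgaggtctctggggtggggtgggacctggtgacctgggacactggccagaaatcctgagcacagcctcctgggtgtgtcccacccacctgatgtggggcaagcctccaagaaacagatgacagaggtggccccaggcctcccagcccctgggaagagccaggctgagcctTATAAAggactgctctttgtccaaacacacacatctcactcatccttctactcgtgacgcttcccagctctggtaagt
S100A8 (chr1:153391024-153391323, minus strand): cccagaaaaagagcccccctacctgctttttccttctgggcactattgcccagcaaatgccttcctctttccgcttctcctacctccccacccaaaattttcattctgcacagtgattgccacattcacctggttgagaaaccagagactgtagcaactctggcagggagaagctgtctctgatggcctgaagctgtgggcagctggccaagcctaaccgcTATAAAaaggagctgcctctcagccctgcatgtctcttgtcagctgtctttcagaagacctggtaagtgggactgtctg
S100A9 (chr1:153357604-153357903, plus strand): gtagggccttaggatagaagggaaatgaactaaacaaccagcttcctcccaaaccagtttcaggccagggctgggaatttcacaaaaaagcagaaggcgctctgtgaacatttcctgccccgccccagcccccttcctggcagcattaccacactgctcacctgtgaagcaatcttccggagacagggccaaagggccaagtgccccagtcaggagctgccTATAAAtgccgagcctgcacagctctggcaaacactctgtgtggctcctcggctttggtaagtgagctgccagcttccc
S100A7A (chr1:153416270-153416569, plus strand): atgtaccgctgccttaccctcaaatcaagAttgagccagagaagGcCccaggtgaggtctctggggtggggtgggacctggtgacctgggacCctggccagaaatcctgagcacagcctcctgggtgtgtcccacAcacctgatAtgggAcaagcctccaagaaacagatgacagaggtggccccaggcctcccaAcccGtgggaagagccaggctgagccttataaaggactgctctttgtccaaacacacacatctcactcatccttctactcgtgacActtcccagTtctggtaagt

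The 10 members had 14 such windows of 300 bases, since some genes have several start sites. The AP-1 motif (TGANTCA, both strands) was found in 1 of these windows, that of S100A2 shown above, 52 bases before its start site, and in 7.71% of all 35116 windows. The other window of S100A2 had no match. The start site of the shown window lay 2046 bases inside the annotated start of the gene, and that of the other 4003 bases. The TATA box (TATAAA, both strands) was found in 5 of the 14 windows and in 11.5% of all windows. These belong to 4 members, S100A4, S100A7, S100A8 and S100A9, and overlapping windows of S100A8 hold the same box. In those shown for S100A7, S100A8 and S100A9 it lay 28, 29 and 29 bases before the start. The STAT motif (TTCNNNGAA, 7.66% of all windows) and the glucocorticoid receptor motif (0.39%) had no match in the windows of the members. No window of a member held matches to more than 1 of these motifs. A match is a description of letters, not a site of binding.

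Of the 10 members, 6 were lower with siE7, none was higher, and 4 were not called (edgeR's quasi-likelihood test, Benjamini-Hochberg adjusted p under 0.05 over 14661 genes). Over all tested genes 34.0% were called, 16.0% lower and 18.0% higher. The median log2 fold change of the members was -0.73, against 0.08 over all tested genes. S100A2, S100A7 and S100A8 also passed a log2 fold change of 1 in either direction, which defines a DEG, and all 3 were lower, where DEGs were 12.2% of tested genes and lower DEGs 4.84%. In 7 members every siE7 library lay below every siNC library, as in 22.7% of tested genes, and in S100A14 every siE7 library lay above, as in 24.9%. In cultures of this kind, fewer cells that express a gene and less RNA per cell cannot be told apart.

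**Figure D1:**
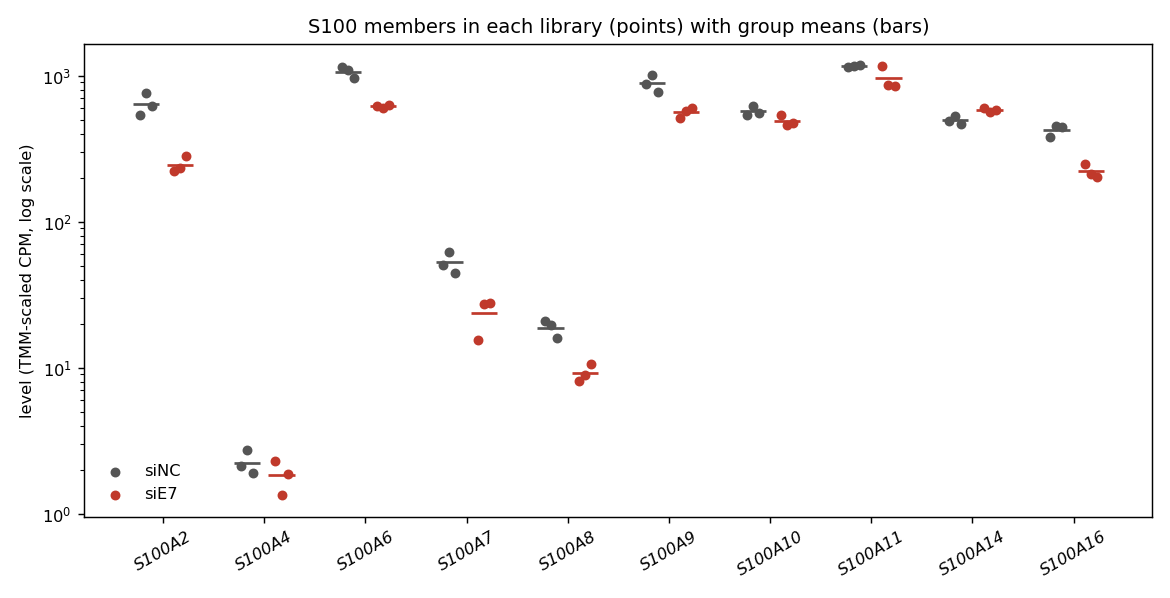
Level of each S100 member in each library, in TMM-scaled CPM on a log axis, with siNC in grey and siE7 in red and bars at the group means. The siE7 points of S100A2, S100A6, S100A7, S100A8, S100A9 and S100A16 lie well below their siNC points, those of S100A14 lie just above, and those of S100A4 and S100A11 overlap.

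S100A2, a protein of basal epithelial cells, showed the lowest log2 fold change of the members. The gene lies at chr1:153561108-153567890 on the minus strand of GRCh38. It was at 541, 767 and 617 CPM with siNC and at 223, 233 and 284 CPM with siE7. The groups were far apart, with the highest siE7 library under the lowest siNC library, and siNC replicate 2 was the highest of all. The log2 fold change was -1.38 ± 0.15 (SE, edgeR adjusted p = 6e-05), which 2.35% of tested genes fell below. S100A2 was the only member to remain a DEG under each of the 13 alternative settings, with log2 fold changes from -1.50 to -1.21.

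S100A4 and S100A6 are relatives of S100A2, with 73.1% and 66.7% identity to it in the aligned coding sequence, and they lie in the same stretch of the cluster. S100A6 (calcyclin, chr1:153534599-153536244, minus strand) is found at high levels in proliferating epithelial cells and fibroblasts. It was at 1139, 1095 and 967 CPM with siNC and at 622, 599 and 634 CPM with siE7. The siE7 libraries were close together and all below siNC, with a log2 fold change of -0.79 ± 0.11 (SE, edgeR adjusted p = 0.00026). S100A6 shares exon positions with a long noncoding RNA on the opposite strand, BX470102.3, whose mean was 0 CPM with siNC and 0.023 CPM with siE7.

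S100A4 (metastasin, chr1:153543613-153550136, minus strand) binds nonmuscle myosin and is best known from mesenchymal and metastatic cells. It was barely expressed, at 2.11, 2.72 and 1.89 CPM with siNC and at 2.29, 1.34 and 1.86 CPM with siE7. The groups overlapped, and the log2 fold change of -0.29 ± 0.28 (SE) did not pass the test (edgeR adjusted p = 0.46). Its 95% interval ran from -0.90 to 0.33, which holds both no change and a fall of the size seen in S100A6. The span of S100A4 overlaps that of S100A3 on the same strand, but their annotated exons do not overlap. S100A3 itself was at 2.31, 2.28 and 2.92 CPM with siNC and at 1.18, 0.69 and 0.43 CPM with siE7 (log2 fold change -1.71 ± 0.36 SE, edgeR adjusted p = 0.0038).

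S100A7, S100A8 and S100A9 are the members known for inflamed epithelium. S100A7 (psoriasin, chr1:153457744-153460651, minus strand) is an antibacterial protein of keratinocytes. It was at 50.8, 62.5 and 44.9 CPM with siNC and at 15.5, 27.1 and 27.9 CPM with siE7. All siE7 libraries were lower, and replicate 1 was lower again than the other siE7 libraries. The log2 fold change was -1.17 ± 0.21 (SE, edgeR adjusted p = 0.0017). Without siE7 replicate 1 it was -0.999, so that S100A7 was no longer a DEG but kept its call (edgeR adjusted p = 3.9e-07).

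S100A7A is the gene that could share reads with S100A7. Their coding sequences were identical at 294 of 306 aligned positions (96.1%), and their promoter windows at 289 of 300 (96.3%). S100A7A had 6, 4 and 7 counts with siNC and 0, 0 and 4 counts with siE7, too few to test. Reads that fit both genes may have been split or dropped by the counting, which is not described, so the level of S100A7 is uncertain to that extent.

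S100A8 and S100A9 encode the subunits of calprotectin. S100A8 (chr1:153390032-153391073, minus strand) was at 20.9, 19.5 and 16.0 CPM with siNC and at 8.16, 8.95 and 10.6 CPM with siE7. S100A9 (chr1:153357854-153361023, plus strand) was at 872, 1006 and 780 CPM with siNC and at 514, 571 and 602 CPM with siE7. In both genes the groups did not overlap. The log2 fold change was -1.02 ± 0.17 (SE, edgeR adjusted p = 0.00094) for S100A8 and -0.66 ± 0.12 (SE, edgeR adjusted p = 0.002) for S100A9. S100A8 was past the fold limit of a DEG by little, and its log2 fold change was -0.94 without siNC replicate 1 and -0.999 without siE7 replicate 1.

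The calprotectin subunits were far from equal in RNA. For each S100A8 count there were 41.6, 51.6 and 48.8 S100A9 counts with siNC and 62.9, 63.8 and 56.6 with siE7. Every siE7 library had the higher ratio, with means of 47.3 ± 5.13 and 61.1 ± 3.92 (SD, n = 3). The log2 ratio of S100A8 to S100A9 differed by -0.37 between the groups (two-sided exact permutation test, p = 0.1, the smallest that 3 against 3 libraries can give). Per kilobase of exon, S100A8 was at 21.1 CPM and S100A9 at 1546 CPM with siNC, and with the length of the canonical transcript S100A8 was at 46.1 CPM and S100A9 again at 1546 CPM. S100A12, the third gene of this kind, was at 0.62 ± 0.043 CPM with siNC and 0.29 ± 0.13 with siE7 (SD, n = 3) and did not pass the test (edgeR adjusted p = 0.086).

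S100A10 and S100A11 bind annexins at the membrane. S100A10 (p11, chr1:151982915-151993859, minus strand) does not need calcium and forms a complex with annexin A2 that binds plasminogen at the cell surface. It was at 536, 622 and 559 CPM with siNC and at 534, 458 and 475 CPM with siE7. The highest siE7 library lay only just under the lowest siNC library. The log2 fold change of -0.23 ± 0.11 (SE) did not pass the test (edgeR adjusted p = 0.14), with a 95% interval from -0.47 to 0.018.

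S100A11 (calgizzarin, chr1:152032506-152047907, minus strand) binds annexin A1. It was at 1155, 1171 and 1176 CPM with siNC, a narrow range, and at 1165, 865 and 846 CPM with siE7. Replicate 1 of siE7 lay within the siNC range and the other siE7 libraries below it. The log2 fold change of -0.28 ± 0.13 (SE) did not pass the test (edgeR adjusted p = 0.12), with a 95% interval from -0.57 to 0.0035. Without siE7 replicate 1 both genes were called lower, S100A10 with a log2 fold change of -0.35 (edgeR adjusted p = 4.5e-06) and S100A11 with -0.51 (edgeR adjusted p = 4.4e-10).

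ANXA2, the partner of S100A10, fell more than S100A10 did. It was at 2507, 2506 and 2361 CPM with siNC and at 1316, 1422 and 1423 CPM with siE7 (log2 fold change -0.83 ± 0.10 SE, edgeR adjusted p = 0.00013). For each S100A10 count there were 4.68, 4.03 and 4.22 ANXA2 counts with siNC and 2.46, 3.10 and 2.99 with siE7. The groups did not overlap, and the log2 ratio of S100A10 to ANXA2 was higher by 0.60 with siE7 (two-sided exact permutation test, p = 0.1, the smallest possible). ANXA1, the partner of S100A11, was at 118 ± 7.83 CPM with siNC and 91.8 ± 31.1 with siE7 (SD, n = 3) and did not pass the test (log2 fold change -0.36, edgeR adjusted p = 0.21). Without siE7 replicate 1 ANXA1 was called lower (log2 fold change -0.16, edgeR adjusted p = 0.021).

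S100A14 and S100A16 are epithelial members whose genes are neighbours, and they gave different values. S100A16 (chr1:153606886-153613145, minus strand) was at 379, 456 and 446 CPM with siNC and at 250, 211 and 204 CPM with siE7. S100A14 (chr1:153614255-153616986, minus strand) was at 488, 531 and 470 CPM with siNC and at 602, 564 and 579 CPM with siE7. The siE7 libraries were all lower for S100A16 and all higher for S100A14, and the groups overlapped in neither gene. S100A16 had a log2 fold change of -0.95 ± 0.12 (SE, edgeR adjusted p = 2e-04), just inside the fold limit of a DEG. Without siE7 replicate 1 it was -1.10, and S100A16 was then a DEG.

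S100A14 was the only member with a positive log2 fold change, 0.23 ± 0.10 (SE), and did not pass the test (edgeR adjusted p = 0.11, 95% interval 0.0032 to 0.45). It was called higher under 2 of the 13 alternatives. Without composition scaling, which moved the median of all genes by 0.17, its log2 fold change was 0.40 (edgeR adjusted p = 0.0058), and without siE7 replicate 1 it was 0.14 (edgeR adjusted p = 0.032).

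**Figure D2:**
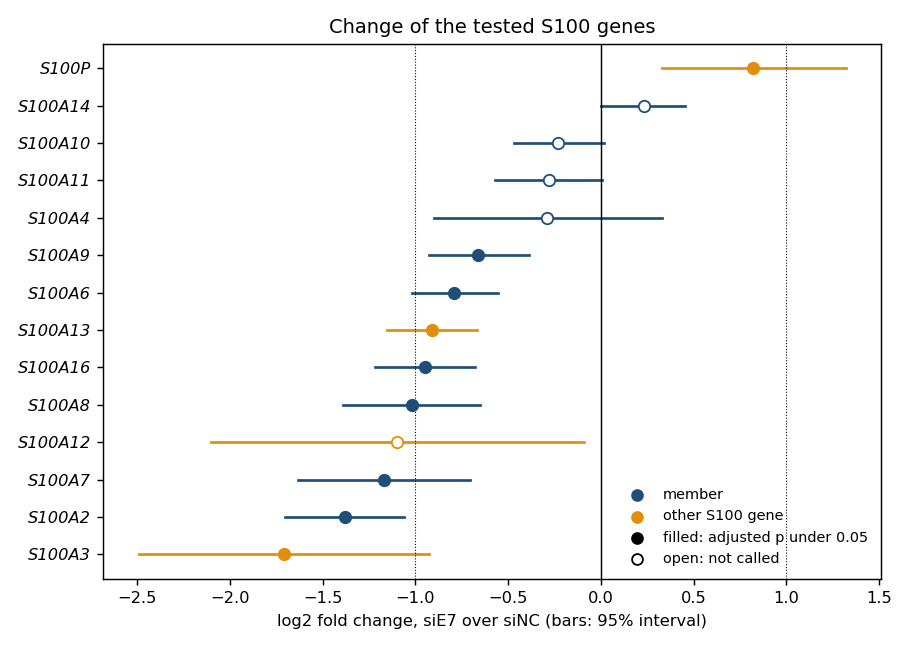
Log2 fold change of siE7 over siNC for the 10 members (blue) and the 4 other S100 genes tested (orange), with 95% intervals from edgeR, filled where the adjusted p is under 0.05 and with dotted lines at a log2 fold change of 1 in either direction. The called members lie between -1.38 (S100A2) and -0.66 (S100A9), and S100P at 0.82 is the called gene on the positive side.

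Levels of different genes are comparable only per length of transcript. In CPM per kilobase of exon, the order with siNC was S100A11 (1798 ± 16.8), S100A9 (1546 ± 198), S100A6 (1099 ± 92.4), S100A10 (566 ± 44.2), S100A2 (415 ± 74.4), S100A14 (389 ± 24.5), S100A16 (251 ± 24.5), S100A7 (108 ± 18.4), S100A8 (21.1 ± 2.86) and S100A4 (2.37 ± 0.46), as means ± SD of 3 libraries. Only S100A2 and S100A14 overlapped among neighbours in this order. With siE7 the order was the same except that S100A14 (456 ± 14.7) stood above S100A2 (159 ± 21.1). There S100A14 overlapped S100A10 (483 ± 39.3), and S100A2 overlapped S100A16 (130 ± 14.5). S100A6 has a long union of exons, and with the length of its canonical transcript it came first with siNC at 2459 CPM per kilobase, before S100A11 at 2073.

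**Figure D3:**
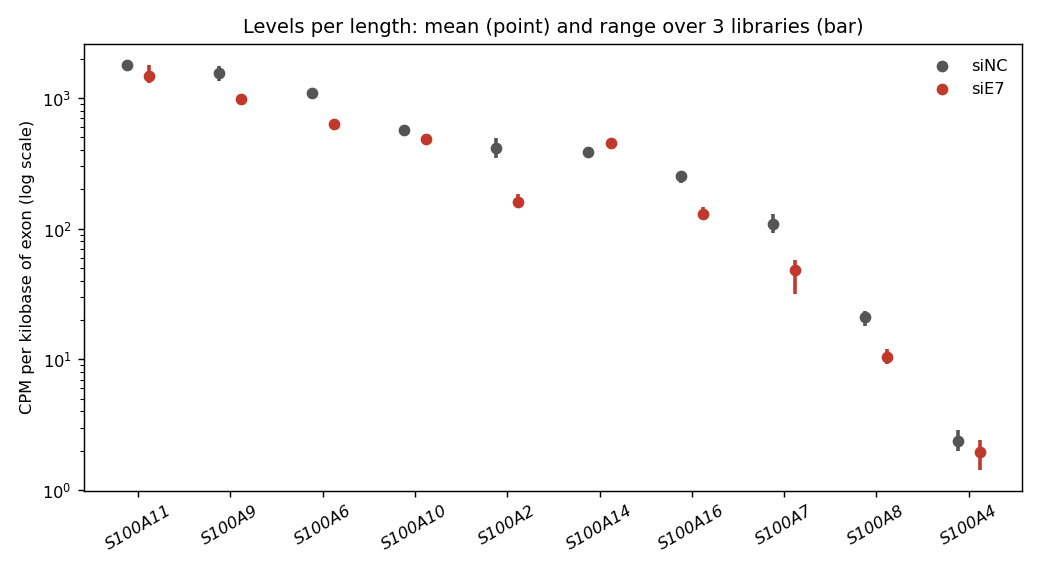
Level per length of each member, in CPM per kilobase of annotated exon on a log axis, as the mean (point) and range (bar) of the 3 siNC (grey) and 3 siE7 (red) libraries, ordered by the siNC mean. The means run from 1798 (S100A11) to 2.37 (S100A4) with siNC, and S100A14 is the gene whose siE7 point lies above its siNC point.

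Together the members took 0.494, 0.539 and 0.475% of all counts with siNC and 0.395, 0.381 and 0.402% with siE7, and the groups did not overlap. Their makeup also differed. S100A14 made up 9.41, 9.27 and 9.26% of the counts on members with siNC and 15.3, 15.9 and 15.8% with siE7. S100A2 went from 10.4, 13.4 and 12.2% to 5.66, 6.58 and 7.74%. S100A11 had the largest share in each of the 6 libraries, at 22.3, 20.4 and 23.2% with siNC and 29.6, 24.4 and 23.1% with siE7.

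Of 11 other S100 genes listed, 7 were in the table and 4 could be tested. S100A3 (above) and S100A13 were lower, S100P was higher and S100A12 did not pass the test, where 34.0% of all tested genes were called. S100A13, which takes part in the release of growth factors, was at 244, 263 and 250 CPM with siNC and at 148, 126 and 129 CPM with siE7 (log2 fold change -0.91 ± 0.11 SE, edgeR adjusted p = 0.00013). Its exons overlap those of S100A1 on the opposite strand, which was close to 0 in every library. S100P, the only one of these genes on chromosome 4, was at 2.03, 2.96 and 2.16 CPM with siNC and at 4.62, 4.13 and 3.89 CPM with siE7 (log2 fold change 0.82 ± 0.23 SE, edgeR adjusted p = 0.016). S100A1, S100A5 and S100A7A had too few counts to test.

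The cluster between S100A10 and S100A1 spans chr1:151982915-153632039, or 1.65 megabases. Its neighbours are the genes other than the members and the other S100 genes above, so fused-type S100 genes (below) are among them. Of 74 neighbours, 35 were in the table and 10 could be tested. Over all tested genes 16.0% were called lower and 18.0% higher. Of the 10 tested neighbours, 6 were lower, 3 were higher and 1 did not pass the test, with a median log2 fold change of -0.60. The lower ones lay between the members at the 2 ends and next to S100A9. They were the cornified envelope genes SPRR1B (-1.97, edgeR adjusted p = 2.7e-05), SPRR2A (-1.99, edgeR adjusted p = 0.00052), SPRR2D (-1.19, edgeR adjusted p = 0.027) and IVL (-0.38, edgeR adjusted p = 0.038), with PRR9 (-4.54, edgeR adjusted p = 0.00029) and PGLYRP4 (-0.81, edgeR adjusted p = 0.045), as log2 fold changes. All of them but IVL were under 11 CPM in every library. The call of IVL held under 6 of the 13 alternatives, that of PGLYRP4 under 8 and that of SPRR2D under 10.

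The higher neighbours lay near S100A11. TCHH and TCHHL1 belong to the fused-type S100 genes, which join an S100 domain to long repeats. TCHH, trichohyalin of the hair follicle, was at 12.0, 16.1 and 12.0 CPM with siNC and at 22.6, 20.9 and 22.2 CPM with siE7 (log2 fold change 0.71, edgeR adjusted p = 0.0049). TCHHL1 was at 0.28, 0.20 and 0.15 CPM with siNC and at 0.61, 1.34 and 1.54 CPM with siE7 (log2 fold change 2.44, edgeR adjusted p = 0.0034). These were the 2 fused-type genes of 7 listed that could be tested. FLG-AS1 had a log2 fold change of 2.92 (edgeR adjusted p = 0.0036) at under 1 CPM, and it overlaps FLG, HRNR and CRNN on the opposite strand.

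Genes of proteins that S100 proteins bind moved in both directions. Of 13 annexins 12 were tested, with 6 lower, 2 higher and 4 not called, and a median log2 fold change of -0.34. Over all tested genes 16.0% were called lower and 18.0% higher. Beside ANXA2, ANXA3 fell (log2 fold change -1.07, edgeR adjusted p = 0.0034) and ANXA7 rose (0.49, edgeR adjusted p = 0.0073). At about 1 CPM or less, ANXA9 was lower (-1.42, edgeR adjusted p = 0.018) and ANXA10 higher (2.73, edgeR adjusted p = 0.0085), and both were DEGs. ANXA11 was lower (-0.41, edgeR adjusted p = 0.029). ANXA8 and ANXA8L1, whose copies are close in sequence and may share reads, had log2 fold changes of -0.31 (edgeR adjusted p = 0.032) and -0.32 (edgeR adjusted p = 0.029). Of 12 other binding partners 4 were lower, 1 was higher and 7 were not called, with a median of -0.05, where 34.0% of all tested genes were called. The lower ones were AHNAK, which binds the complex of S100A10 and annexin A2 (-0.67, edgeR adjusted p = 0.00059), MYH9, the nonmuscle myosin heavy chain that S100A4 binds (-0.62, edgeR adjusted p = 0.0052), IQGAP1 (-0.80, edgeR adjusted p = 0.0013) and CHP1 (-0.51, edgeR adjusted p = 0.025). The higher one was S100PBP (0.41, edgeR adjusted p = 0.024).

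Of 8 listed receptors of released S100 proteins 4 were tested, while TLR4, CD36, CD68 and IL10RA had too few counts to test. AGER was at 0.53 ± 0.16 CPM with siNC and 0.68 ± 0.26 with siE7 (SD, n = 3, edgeR adjusted p = 0.54), and BSG, a receptor for S100A9, at 435 ± 13.4 and 364 ± 87.4 CPM (edgeR adjusted p = 0.21). Without siE7 replicate 1 BSG was called lower (log2 fold change -0.53, edgeR adjusted p = 1.3e-10). NPTN was at 73.9 ± 2.83 CPM with siNC and 67.8 ± 1.61 with siE7 (SD, n = 3, log2 fold change -0.12, edgeR adjusted p = 0.39). It was called lower without siE7 replicate 1 (log2 fold change -0.19, edgeR adjusted p = 0.012). ALCAM was the called one, lower at 15.2 ± 5.01 CPM with siE7 against 31.2 ± 1.77 with siNC (SD, n = 3, log2 fold change -1.04, edgeR adjusted p = 0.0036). Annexins, partners and receptors together gave 14 calls among 28 genes, where 34.0% of all tested genes were called. They gave 24 calls without siE7 replicate 1, where 58.4% of all tested genes were called, and 7 without siNC replicate 3, where 20.9% were. The calls of ANXA2, ANXA3, AHNAK, MYH9, IQGAP1 and ALCAM held under all 13 alternatives, and those of ANXA8, ANXA8L1, ANXA9, ANXA11, CHP1 and S100PBP under 4 to 8.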

How the data were processed

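The authors deposited 1 table of raw counts, the number of reads on each of 25349 genes in 6 libraries, without normalization. Directional poly(A) libraries were sequenced as read pairs on an Illumina NovaSeq. The submitters' processing notes name HISAT2, DESeq2 and GRCh38. The counting tool, the annotation release and the use of strand in counting are not given in the sources used here. Samples were grouped by their titles, with no batch in the labels.

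Genes were filtered with filterByExpr, scaled with TMM factors and compared by the quasi-likelihood F-test of edgeR 4.0.16 (R 4.3.3, robust dispersions), and p-values were adjusted by Benjamini-Hochberg over 14661 genes. The SE is the log2 fold change divided by the root of F. The alternatives were DESeq2 1.42.0, RLE, upper-quartile and no scaling, no filter, a minimum of 10 counts per library, the replicate number as a block, and leaving out each library in turn. Levels per length use GENCODE v44 exons, with the canonical transcript as an alternative chosen after seeing the data. Of the identifiers 25283 matched GENCODE v44 without version and 20655 with it. Promoters are from RefSeq (GRCh38.p14). Tables were built with Python 3.11.15 and pandas 2.3.3.

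Members and lists were chosen with earlier results of these data known. The genes named were all members, tested genes of the lists, MKI67, neighbours in the cluster that were DEGs, and for each member the gene nearest in pattern. Outside this rule, IVL and PGLYRP4 were named after their values were seen, as were genes given as too low to test or not in the table, and others for overlapping or resembling a named gene.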

Additional observations from a re-analysis of the deposited data

How the results depend on the processing

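The 6 members called lower were called under all 13 alternatives, and no member changed direction. AGER, which was not called, ranged from -0.05 to 0.59 in log2 fold change, and 6 more genes of the partner lists that were not called also changed sign. Without composition scaling 1 member, S100A14, was called higher and 1 member, S100A2, remained a DEG. Leaving out each library in turn gave 3153 to 8765 called genes of all tested, 0 to 1 members called higher, 6 to 8 called lower, 2 to 3 DEGs among the members and 7 to 24 called annexins, partners and receptors. Calls among the neighbours in the cluster ranged from 6 to 10 in the same fits. Leaving out siE7 replicate 1 gave the highest of these counts, except for the DEGs among the members, where it gave the lowest. S100A8 was not a DEG with the stricter count filter, with upper-quartile factors, or without siE7 replicate 1 or siNC replicate 1, and S100A16 became one with DESeq2 and without either of those libraries. The causes were not tested. With a replicate block 4947 genes were called and the 6 members remained, with 12 calls among annexins, partners and receptors. The replicate numbers did not pair the libraries: same-numbered deviations from the group means correlated at -0.039, -0.021 and -0.052, and no library correlated best with its own number. With 3 libraries per group, an exact permutation test cannot give a p under 0.1. S100A4, at about 2 CPM, is limited by depth, and use of strand in counting is open for S100A6, S100A13 and FLG-AS1.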

Other observations

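For each member, the tested gene with the most similar pattern over the 6 libraries was found by the root mean square difference of log2 CPM after centring each gene. The nearest gene was CRYBG3 for S100A2 (0.111), PODXL2 for S100A4 (0.074), SHMT1 for S100A6 (0.057), SAMD9 for S100A7 (0.064), DDX60L for S100A8 (0.079), NPIPB11 for S100A9 (0.044), METTL26 for S100A10 (0.015), SARS2 for S100A11 (0.014), FAM193A for S100A14 (0.030) and EPN3 for S100A16 (0.034). No nearest gene was an S100 gene. The nearest other member of S100A8 was S100A6, at 0.161 and at rank 63 of all tested genes, and S100A9 and S100A6 were each other's nearest member at 0.123. These are descriptions over 6 libraries that share the contrast of siE7 with siNC.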
